A study of Mus musculus with 16 samples.

Results

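The canonical Wnt pathway controls beta-catenin, a protein that carries the signal into the nucleus. Without a Wnt ligand, a destruction complex built on the scaffolds Apc and Axin1 lets casein kinase 1 alpha (Csnk1a1) and then the glycogen synthase kinases Gsk3a and Gsk3b phosphorylate beta-catenin (Ctnnb1), which marks it for degradation. A ligand bound to a Frizzled receptor and the co-receptors Lrp5 or Lrp6 halts that complex, and beta-catenin then binds the DNA-binding factors Tcf7 and Lef1 and switches on their targets. Beta-catenin is a known need of the stem cells of chronic myeloid leukemia (CML) in mouse models, and Tcf7 and Lef1 are also well known for their part in T-cell development. Messenger RNA levels do not show how much beta-catenin protein is present or where in the cell it is.

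The 10 genes described are the listed canonical members Ctnnb1, Apc, Axin1, Gsk3a, Gsk3b, Csnk1a1, Lrp5, Lrp6, Tcf7 and Lef1, found by symbol among 26595 features of a CD93 experiment and 36930 features of a drug experiment. All 10 were found in both. A further 118 genes of 7 wider pathway lists (ligands, receptors, extracellular inhibitors, cytoplasmic and nuclear components, targets and adhesion partners of catenin) give the background of the pathway.

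The cells were bone marrow cells of C57BL/6 mice at postnatal week 8, purified by flow sorting, in 16 libraries. The CD93 experiment had leukemia stem cells (LSCs) grown from CD93-/- cells (KO LSC, 3 libraries) or from BL/6 cells (WT LSC, 3 libraries), and naive LSK cells, the lineage-negative Sca-1+ c-Kit+ fraction, of CD93-/- mice (KO LSK, 2 libraries) or BL/6 mice (WT LSK, 2 libraries). CML was made by transducing LSK cells with BCR-ABL1-GFP and injecting them into non-irradiated BL/6 recipients, so that KO leukemias grew in hosts that carried CD93. In the drug experiment BL/6 mice with BCR-ABL1 CML received metoclopramide at 10 mg/kg (MCP, 3 libraries) or vehicle (Veh, 3 libraries) before LSCs were sorted, so both of its groups were leukemic. The labels give no detail of the CD93 allele and leave unsaid if each replicate was another animal, and the p-values then cover only the spread between these samples, which may be technical.

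Values are RPKM, reads per kilobase of gene scaled to the size of the library, where the lowest value of each table (0.003 in the CD93 experiment, 0.001 in the drug experiment) stands for no signal. Signal above that value was found in 1230 to 2967 features of each KO LSC library, 5525 to 7956 in WT LSC, 14279 to 14906 in KO LSK and 14839 to 14865 in WT LSK, and in 15587 to 16447 in MCP LSC and 19554 to 20014 in Veh LSC. The low counts of features touch every comparison that includes the KO or WT LSC libraries. Cd93, the gene deleted in KO, was 0.003, 44.3 and 0.003 RPKM in KO LSC libraries 1 to 3 and 0.003, 0.003 and 5.74 in WT LSC, then 1.01 and 2.10 in KO LSK and 5.34 and 22.9 in WT LSK. The library labelled KO LSC 2 thus goes against its label, and 2 WT LSC libraries lack the gene as well. Counts of pathway genes and of all features that rest on KO LSC are also given without KO LSC 2. The labels do not name the deleted part of Cd93, so signal outside it is possible. Among the markers of LSK cells, Kit was at 0.003 in all 3 KO LSC libraries and at 0.221, 16.8 and 2.63 RPKM in WT LSC, against 14.2 to 99.3 in the 4 LSK libraries, and it was 62.4 to 74.3 in MCP and 68.4 to 77.5 in Veh LSC. The summed level of 10 neutrophil markers was 48177 to 84461 RPKM in KO LSC and 87489 to 144199 in WT LSC, against 5834 to 6778 in KO LSK and 5486 to 8989 in WT LSK. That of 7 macrophage markers was 13572 to 31410 in KO LSC and 11406 to 24149 in WT LSC, against 3834 to 4681 in KO LSK and 1832 to 3260 in WT LSK. Single markers did not all follow these sums. By an adjusted p under 0.05 (limma), 7 neutrophil markers rose from KO LSK to KO LSC and 1 fell, Ngp (log2 difference −7.28, adjusted p = 0.0367). Of the macrophage markers 2 rose and 0 fell, with 3 positive and 4 negative differences. From WT LSK to WT LSC, 7 neutrophil and 3 macrophage markers rose and 0 fell. Adgre1 and Mrc1, both macrophage markers, lacked signal in KO LSC 1 and 2. The part of the sparse signal and of these markers in the results of the CD93 experiment was not tested.

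The stretch of Ctnnb1 on which the kinases act is shown because it ties the listed genes together. It was read from the longest open reading frame of the mouse transcript in GENCODE M21 (781 codons), from codon 31 to codon 47. The codons of the 4 phosphorylated residues are in capitals, in the order S33, S37, T41 and S45.
Ctnnb1 codons: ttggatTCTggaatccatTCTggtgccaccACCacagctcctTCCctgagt
Csnk1a1 acts on S45, and Gsk3a or Gsk3b then act on T41, S37 and S33. The files hold gene totals, so reads over this stretch were not examined.

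In vehicle-treated LSCs nearly the whole cascade was present, with levels that were close between libraries. Csnk1a1 was highest with 210, 208 and 217 RPKM in the 3 Veh libraries, and Ctnnb1 followed with 94.9, 111 and 99.6. Axin1 (34.0 to 35.5) and Gsk3b (31.2 to 34.3) overlapped in their libraries, as did Gsk3a (26.2 to 30.6) and Lrp6 (24.8 to 27.6). Apc (17.6 to 19.1) and Lrp5 (15.0 to 15.8) came next, and each lay below every library of the gene before it. The DNA-binding factors were lowest: Tcf7 measured 5.12 to 7.003 RPKM and Lef1 0.193 to 0.491. Within these libraries Gsk3b was 1.12 to 1.19 times Gsk3a and Lrp6 was 1.57 to 1.83 times Lrp5.

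**Figure D1:**
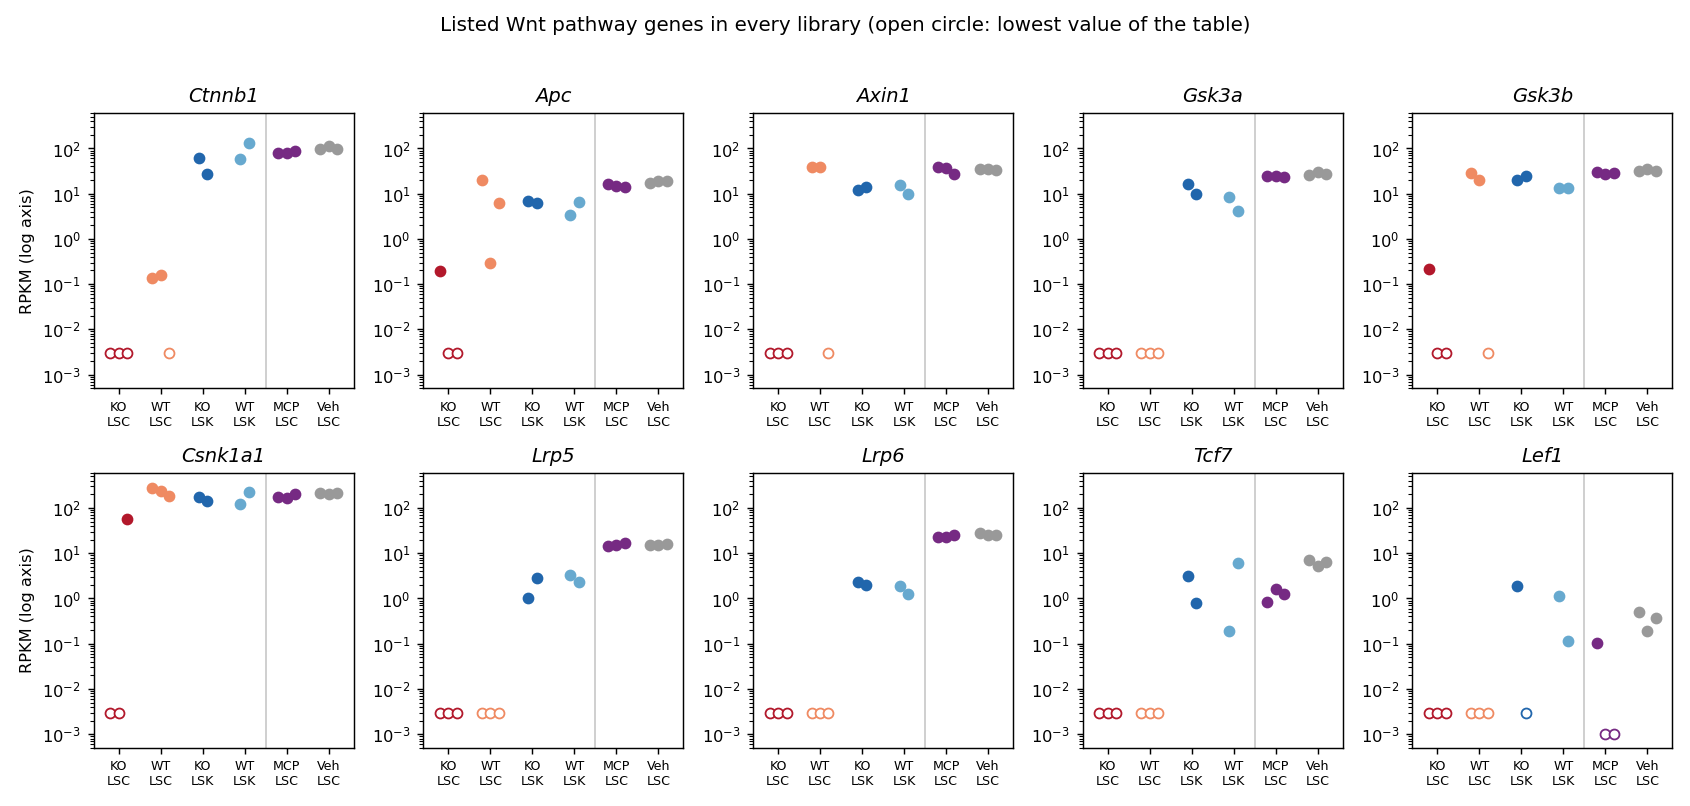
RPKM of each of the 10 listed genes in every library, on a log axis, with a panel for each gene and the 2 experiments parted by a vertical line; a point is a library and an open circle a library at the lowest value of its table. Lrp5, Lrp6, Gsk3a, Tcf7 and Lef1 lie at 0.003 in all 6 KO and WT LSC libraries, and Tcf7 is at 0.836 to 1.63 in MCP LSC, below the 5.12 to 7.003 of Veh LSC.

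In MCP against Veh LSCs both groups had dense signal, and 1 listed gene, at the end of the cascade, changed. Tcf7, the gene of the factor TCF-1, measured 0.836, 1.63 and 1.28 RPKM in MCP LSCs, against 7.003, 5.12 and 6.37 in Veh LSCs. Every MCP library lay below every Veh library. The means were 1.25 ± 0.396 in MCP and 6.17 ± 0.957 in Veh (SD, n = 3 each), so Tcf7 was 4.94-fold lower in MCP. On the scale of log2(RPKM + 1) the difference was −1.68 (SE 0.25), with an adjusted p = 0.026 (limma, Benjamini-Hochberg over all 14005 features tested, two-sided). Of the 9 listed genes tested, Tcf7 alone passed the threshold of 0.05, while 1.8% of all tested features fell (252, with 73 higher). The call ended when any Veh library was left out: the difference was then −1.60, −1.79 and −1.65 without Veh 1, 2 and 3, with adjusted p of 0.138, 0.0738 and 0.144 (limma). It also ended with no filter on low values (adjusted p = 0.0582, limma).

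Lef1, the partner factor of Tcf7, was too low to be tested. It measured 0.106, 0.001 and 0.001 RPKM in MCP and 0.491, 0.193 and 0.378 in Veh, so that 2 MCP libraries listed it at the lowest value and every Veh library had a trace. MCP libraries also held fewer features above the lowest value than Veh libraries, and the part of this in a value as low as that of Lef1 was not tested.

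Tcf7 is expressed in T cells, so markers of T and NK cells were read beside it. Cd3e and Cd3g, which encode invariant chains of the T-cell receptor complex, were at 0.001 in all 6 libraries, and Bcl11b reached at most 0.142 in MCP and 0.27 in Veh. The 14 T and NK markers summed to 93.7 to 157.5 RPKM in MCP and 104.1 to 112.9 in Veh, and 0 of the 5 that could be tested passed. Nkg7 and Thy1 made up most of that sum. Without this pair, left out after the values were seen, the other 12 summed to 2.89 to 5.68 RPKM in MCP and 9.48 to 10.8 in Veh, with no overlap. In 25.6% of all tested features every MCP library likewise lay below every Veh library. Of the 14 markers 8 were at 0.001 in each MCP library, against 2 to 4 in Veh. Over all tested features, 95.1% to 96.6% were above 0.001 in MCP libraries and 99.2% to 99.4% in Veh. Lck, a kinase of T-cell receptor signaling, was the largest part of the sum of the 12. It measured 2.03 to 3.53 RPKM in MCP and 5.62 to 6.46 in Veh, with an adjusted p = 0.0849 (limma). Some markers of LSK cells were lower in MCP as well. Of 11 LSK markers 4 fell in MCP, Meis1, Hlf, Slamf1 and Cd34, where 1.8% of all tested features fell. All 11 had negative log2 differences, and their summed level was 220.0 to 230.5 RPKM in MCP and 341.7 to 358.3 in Veh. Kit and Ly6a (Sca-1), which define the fraction, did not pass. Their log2 differences were −0.15 (adjusted p = 0.394) and −0.46 (adjusted p = 0.472, limma). Hlf, a transcription factor of hematopoietic stem cells, had 7.36 to 7.87 RPKM in MCP, against 17.2 to 22.3 in Veh. Where 73 of all 14005 tested features rose, 5 of 9 tested neutrophil markers did: Elane, Ctsg, Prtn3, Mpo and S100a8. The others did not pass, with log2 differences of 0.78 for S100a9 (adjusted p = 0.0615), 0.02 for Camp (0.98), −0.37 for Ngp (0.487) and −1.04 for Ltf (0.117, limma), so 7 of the 9 had positive and 2 negative differences. In sorted bulk cells, fewer cells that carry Tcf7 and less Tcf7 RNA in each cell cannot be told apart, and the part of these T and NK markers or of a shift in cell makeup was not tested.

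The other listed genes moved little. Ctnnb1 had 79.2, 80.3 and 86.1 RPKM in MCP, against 94.9, 111 and 99.6 in Veh. Its groups did not overlap, and the log2 difference was −0.31 (SE 0.09, adjusted p = 0.101, limma). Over all tested features the median log2 difference was −0.18 and that of the 9 listed genes −0.21, so most of the listed genes lay where most features lay.

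Among the kinases, Csnk1a1 measured 174, 168 and 200 RPKM in MCP and 210, 208 and 217 in Veh, a log2 difference of −0.23 (SE 0.08, adjusted p = 0.16, limma). Gsk3a had 24.0, 24.7 and 23.3 RPKM in MCP, against 26.2, 30.6 and 27.0 in Veh. Gsk3b had 29.5, 26.8 and 29.4 in MCP, against 31.2, 34.3 and 32.2 in Veh. For all 3 kinases each MCP library lay below each Veh library, and for Gsk3a and Gsk3b the log2 differences of −0.21 (SE 0.11) and −0.18 (SE 0.10) had adjusted p of 0.3 and 0.317 (limma).

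Neither scaffold passed, and the difference between them was not tested. Apc measured 16.4, 14.9 and 14.4 RPKM in MCP and 17.6, 19.1 and 18.7 in Veh, a log2 difference of −0.26 (SE 0.12, adjusted p = 0.257, limma), with no overlap. Axin1 measured 38.6, 37.5 and 27.8 in MCP and 34.5, 35.5 and 34.0 in Veh, with MCP library 3 low and a log2 difference of −0.02 (SE 0.14, adjusted p = 0.959, limma). The sign for Axin1 turned without MCP 3, to 0.13, and under quantile normalization, to 0.11.

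Both co-receptors overlapped between the groups. Lrp5 had 14.2, 15.6 and 17.0 RPKM in MCP and 15.0, 15.4 and 15.8 in Veh, a log2 difference of 0.01 (SE 0.13, adjusted p = 0.968, limma). Lrp6 had 22.9, 22.3 and 25.5 in MCP and 27.6, 25.7 and 24.8 in Veh, a log2 difference of −0.14 (SE 0.11, adjusted p = 0.493, limma). The signs of both are unstable: Lrp5 was −0.05 without MCP 3 and Lrp6 was 0.01 under quantile normalization.

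Counted together, every MCP library lay below every Veh library for 6 of the 9 tested listed genes (Ctnnb1, Apc, Gsk3a, Gsk3b, Csnk1a1 and Tcf7), and this was so for 25.6% of all tested features. Quantile normalization, which sets the overall distributions equal, brought the median log2 difference of all features to −0.0049, and the calls to 109 higher and 151 lower. Under it Tcf7 was still lower in MCP, by a log2 difference of −1.41 (adjusted p = 0.0414, limma).

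**Figure D2:**
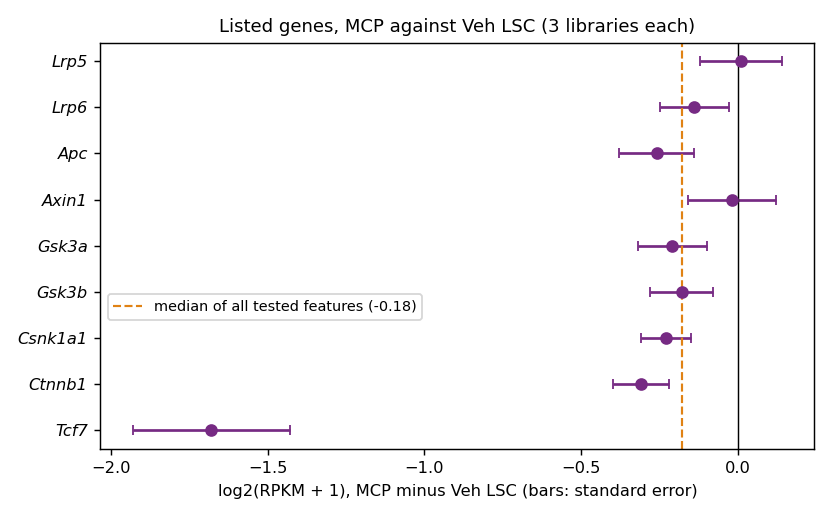
Difference in log2(RPKM + 1), MCP minus Veh LSC (x axis), of the 9 tested listed genes (rows), with bars of 1 standard error from limma; the dashed line is the median of all tested features, −0.18. The 8 genes other than Tcf7 lie between −0.31 and 0.01, and Tcf7 lies at −1.68.

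Around the listed genes the wider pathway was mostly present in the drug experiment inside the cell and sparse outside it. Only 1 of 25 ligand-side genes passed the filter: Wls, which encodes the carrier that escorts Wnt proteins to the cell surface, with 10.99 to 12.2 RPKM in MCP and 10.7 to 11.8 in Veh. Wnt2b was at 0.001 in the 3 MCP libraries and at 0.138 to 0.517 in Veh. Of 14 extracellular inhibitors 9 were at 0.001 in all 6 libraries, and the highest was Sfrp4, a secreted Wnt-binding protein, with 4.16 to 12.8 RPKM in MCP and 8.82 to 12.04 in Veh. Kremen1, a co-receptor of Dkk inhibitors, had 1.61 to 4.07 in MCP and 2.53 to 2.90 in Veh. Receptors were low too, and 7 of 18 could be tested. The highest were Znrf3, a ligase that removes Frizzled receptors from the surface (3.42 to 4.48 RPKM in MCP, 5.01 to 5.597 in Veh), and Fzd7 (2.44 to 4.33 in MCP, 3.55 to 5.63 in Veh). None of the tested ligand, receptor or inhibitor genes passed (limma). Over all wider lists 3 of 61 tested genes fell, where 1.8% of all tested features fell.

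Cytoplasmic components were well covered, and 0 of 19 tested genes passed in either direction, with a median log2 difference of −0.17. Ppp2ca, the catalytic subunit of the phosphatase PP2A, had 140 to 153 RPKM in MCP and 136 to 139 in Veh, and Ppp2r5c, a regulatory subunit, had 78.5 to 84.8 in MCP and 87.1 to 95.6 in Veh. Nuclear components passed in 0 of 19 cases, with a median of −0.29. Ctbp1, a co-repressor, had 95.2 to 102 RPKM in MCP and 108 to 120 in Veh, and Tbl1xr1, a co-regulator, had 36.9 to 54.6 in MCP and 53.0 to 57.1 in Veh. Of the catenin partners at cell contacts 0 of 4 tested genes passed; Ctnna1 (alpha-catenin) had 26.9 to 44.7 in MCP and 34.3 to 39.8 in Veh, and Ctnnd1 (p120-catenin) 12.8 to 17.5 in MCP and 20.4 to 22.1 in Veh.

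Among genes listed as targets of beta-catenin, 4 of 12 tested fell in MCP and 0 rose: Tcf7, Sox4, Jun and Myc. Over all tested features 1.8% fell, and Tcf7 is the same gene that passed among the listed genes. The median log2 difference of the 12 was −0.38, against −0.18 for all features. Sox4, a transcription factor of progenitor cells, measured 16.3, 20.3 and 22.1 RPKM in MCP and 37.2, 36.1 and 35.5 in Veh, a log2 difference of −0.87 (SE 0.13, adjusted p = 0.0279, limma). Jun, a subunit of the transcription factor AP-1, had 424, 487 and 451 RPKM in MCP, against 587, 585 and 621 in Veh (log2 difference −0.40, adjusted p = 0.0397, limma). Myc, a growth regulator with many inputs other than Wnt, had 129, 135 and 163 RPKM in MCP, against 203, 211 and 196 in Veh (log2 difference −0.52, adjusted p = 0.0466, limma). In each of these 3 genes the MCP libraries lay below all Veh libraries. None of the 3 passed once a Veh library was left out (adjusted p of 0.102 to 0.191 over these fits), Jun was also lost without MCP 1 or MCP 3 (0.0576 and 0.0729), and Myc without MCP 1 or MCP 2 (0.0681 and 0.0723), all from limma. Myc also missed the threshold under quantile normalization and with a pseudocount of 0.1 (adjusted p of 0.0515 and 0.0521), and with no filter Jun and Myc both did (0.0636 and 0.0702, limma).

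Axin2, the target most often read as a gauge of Wnt signaling, was too low to test, with 0.001, 0.001 and 0.485 RPKM in MCP and 0.155, 0.405 and 0.408 in Veh. Ccnd1 (cyclin D1) had 3.08, 2.12 and 1.52 RPKM in MCP and 4.43, 4.22 and 4.48 in Veh, with an adjusted p = 0.142 (limma). Cd44, an adhesion receptor, had 64.0, 73.2 and 57.5 in MCP and 75.7, 82.0 and 73.5 in Veh, with an adjusted p = 0.217 (limma). For Ccnd1 and Cd44 the MCP libraries lay below all Veh libraries, in a comparison where that was so for 25.6% of all tested features.

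**Figure D3:**
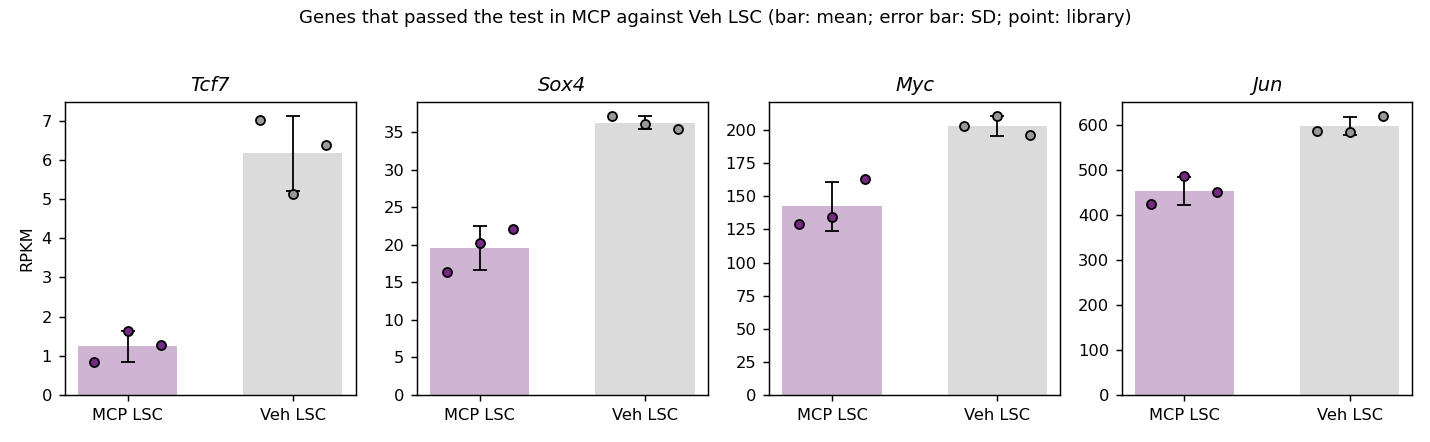
RPKM (y axes from 0) of the 4 genes on the target list that passed the test, in MCP and Veh LSC; points are libraries, bars means and error bars the SD (n = 3 each). All 3 MCP libraries lie below all 3 Veh libraries in each panel, with means of 1.25 and 6.17 for Tcf7 at the widest ratio.

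Because Tcf7 was the listed gene that passed, its start regions were read for the core motif of TCF factors. RefSeq gives 2 start windows for Tcf7 on GRCm38.p6, at chr11:52282965-52283264 and chr11:52282546-52282845, both on the minus strand, each with 250 bases before the start and the 50 after it in capitals.
Tcf7 start window 1: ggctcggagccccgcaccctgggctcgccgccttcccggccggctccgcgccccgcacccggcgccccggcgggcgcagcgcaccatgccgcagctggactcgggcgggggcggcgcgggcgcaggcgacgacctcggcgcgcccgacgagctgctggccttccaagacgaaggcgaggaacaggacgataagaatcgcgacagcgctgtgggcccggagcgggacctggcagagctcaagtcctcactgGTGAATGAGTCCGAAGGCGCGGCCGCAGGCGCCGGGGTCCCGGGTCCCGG
Tcf7 start window 2: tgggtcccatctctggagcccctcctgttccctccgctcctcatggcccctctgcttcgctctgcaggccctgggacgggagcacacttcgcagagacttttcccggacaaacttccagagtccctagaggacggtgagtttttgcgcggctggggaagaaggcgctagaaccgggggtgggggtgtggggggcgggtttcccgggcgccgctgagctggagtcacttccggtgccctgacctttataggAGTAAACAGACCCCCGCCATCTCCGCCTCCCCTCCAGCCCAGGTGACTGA
The letters CTTTGAT, read on both strands, are in neither window. They are in 1225 of the 32851 mouse start windows (3.73%) and in none of the windows of the 5 listed genes that have them (Ctnnb1, Gsk3a, Gsk3b, Tcf7 and Lef1). The lower-case part of Tcf7 window 1 holds an ATG whose reading frame runs without a stop into the capitals. That window may thus lie inside coding sequence, and a Tcf7 start further upstream was not searched. No match says only that these letters are not in these windows.

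In the CD93 experiment the listed genes were expressed in naive LSK cells, with more scatter between libraries than in the drug experiment. Csnk1a1 was highest, with 179 and 145 RPKM in KO LSK and 124 and 224 in WT LSK. Ctnnb1 had 60.4 and 26.7 in KO LSK and 59.1 and 135 in WT LSK. The co-receptors were near the low end: Lrp5 had 1.05 and 2.89 in KO LSK and 3.38 and 2.37 in WT LSK, and Lrp6 had 2.34 and 1.98 in KO LSK and 1.88 and 1.26 in WT LSK. In WT LSK Csnk1a1 and Ctnnb1 overlapped, and in KO LSK they did not.

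Tcf7 and Lef1 were the least even. Tcf7 measured 3.14 and 0.809 RPKM in KO LSK and 0.189 and 6.07 in WT LSK, where the lower WT value corresponds to about 2.9 reads at the estimated depth. Lef1 measured 1.85 and 0.003 in KO LSK and 1.15 and 0.113 in WT LSK. The 4 LSK libraries also held T-cell transcripts, with Cd3g at 57.3 and 49.4 RPKM in KO LSK and 27.9 and 25.3 in WT LSK, and the part of such cells in the Tcf7 and Lef1 values was not tested.

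KO against WT LSK cells asks whether the CD93-/- genotype goes with a change in the pathway before leukemia. None of the 10 listed genes passed, where 1.83% of all tested features were called (247 of 13485), and 1173 of all features had an unadjusted p under 0.05 (limma). The median log2 difference was 0.08 over the listed genes and −0.11 over all features. Ctnnb1 gave −1.13 (SE 0.53, adjusted p = 0.671, limma), with WT LSK 2 far above the other 3 libraries. Gsk3a had 15.98 and 9.77 RPKM in KO LSK, against 8.53 and 4.22 in WT LSK, a log2 difference of 0.94 (SE 0.34, adjusted p = 0.401, limma). It passed without WT LSK 1 (1.37, adjusted p = 0.0451, limma). Gsk3b had 20.3 and 25.0 in KO LSK and 13.4 and 13.1 in WT LSK, a log2 difference of 0.72 (SE 1.42). That SE rests on the spread pooled over all 10 libraries of the experiment, and WT LSC had 28.2, 20.5 and 0.003 RPKM of Gsk3b. Apc had 7.06 and 6.14 in KO LSK and 3.35 and 6.54 in WT LSK, and Axin1 had 11.97 and 13.7 in KO LSK and 15.6 and 9.94 in WT LSK, both with overlap. Of the wider pathway 0 of 57 tested genes passed (limma).

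In the LSCs of the CD93 experiment most listed genes had no signal. Lrp5, Lrp6, Gsk3a, Tcf7 and Lef1 were at 0.003 in all 3 KO LSC and all 3 WT LSC libraries. Ctnnb1 was at 0.003 in the 3 KO LSC libraries and at 0.138, 0.156 and 0.003 in WT LSC, where the 2 values above the lowest correspond to about 2.2 reads each at the estimated depths. The Veh LSCs of the drug experiment, also WT LSCs by label, had 94.9 to 111 RPKM of Ctnnb1; the tables were made separately, so this stands side by side and was not tested.

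The genes that kept signal did so in some libraries and not in others. Csnk1a1 had 0.003, 0.003 and 57.8 RPKM in KO LSC, against 283, 233 and 182 in WT LSC. Axin1 was at 0.003 in the 3 KO LSC libraries, and at 39.3, 39.4 and 0.003 in WT LSC. Gsk3b had 0.22, 0.003 and 0.003 in KO LSC, against 28.2, 20.5 and 0.003 in WT LSC. Apc had 0.195, 0.003 and 0.003 in KO LSC, against 19.8, 0.3 and 6.26 in WT LSC. WT LSC 3 thus lacked Axin1 and Gsk3b, while WT LSC 1 and 2 held both.

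The LSC libraries of this experiment were sparse throughout. Above the lowest value were 2, 0 and 1 of the 10 listed genes in KO LSC and 5, 5 and 2 in WT LSC, against 10 and 9 in KO LSK and 10 and 10 in WT LSK. Of the 13485 features tested in the experiment, 8.66% to 21.3% were above it in KO LSC and 40% to 57.1% in WT LSC, against 96% to 97.7% in KO LSK and 97.6% to 97.8% in WT LSK. Of these features 55% needed LSK libraries to pass the filter, with at most 1 LSC library at 1 RPKM or more. The lower share in LSCs is thus partly set by the filter.

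**Figure D4:**
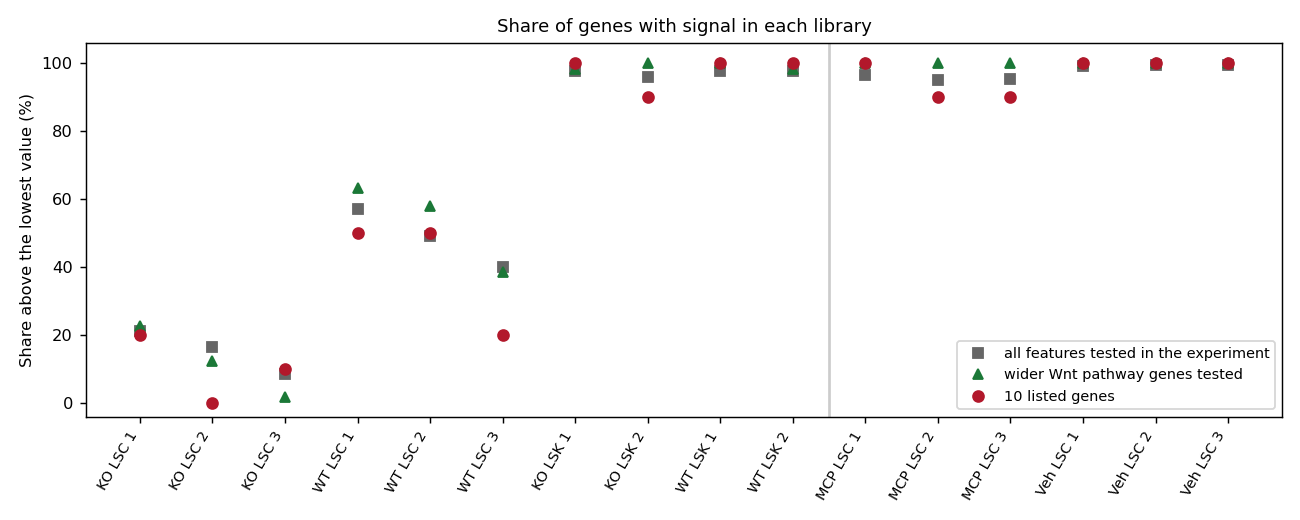
Share (%) of genes above the lowest value in each library: the 10 listed genes (circles), the wider pathway genes tested (triangles) and all features tested (squares), with the drug experiment right of the line. In KO LSC the listed genes are at 0% to 20% and all features at 8.66% to 21.3%, and in the LSK, MCP and Veh libraries all 3 sets are at 90% or above.

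KO against WT LSCs asks whether leukemia grown from CD93-/- cells differs. None of the 10 listed genes passed, where 8.81% of all tested features were called (10 higher and 1178 lower), and 2843 of all features had an unadjusted p under 0.05 (limma). Gsk3a, Lrp5, Lrp6, Tcf7 and Lef1 were at 0.003 in every KO and WT LSC library. In this fit they could not pass, with or without KO LSC 2. The result thus rests on the other listed genes, of which Ctnnb1 reached at most 0.156 RPKM. Csnk1a1 had a log2 difference of −5.88 (SE 1.55, adjusted p = 0.0605, limma), and it passed without KO LSC 3 (−7.84, adjusted p = 0.00284, limma), the only KO LSC library with signal for it. Apc gave −2.45 (SE 0.88, adjusted p = 0.198), Axin1 −3.55 (SE 1.32, adjusted p = 0.211) and Gsk3b −3.00 (SE 1.16, adjusted p = 0.211), from limma. Apc passed without WT LSC 2 (−3.53, adjusted p = 0.00342), and Axin1 and Gsk3b without WT LSC 3 (−5.33 and −4.55, adjusted p = 0.000393 for both, limma). Without KO LSC 2, which carries Cd93 signal, 0 of the 10 passed and 8.94% of all 13472 tested features were called (11 higher and 1194 lower). The fitted differences of genes at the lowest value depend on the 1 RPKM added before the logarithm and are no measure of a fold.

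Of the wider pathway 8 of 57 tested genes were lower in KO LSC, where 8.81% of all tested features were called, higher or lower. They were Chd8, Wls, Ppp2r5a, Hdac1, Tle2, Tbl1x, Ppp2r1a and Ctnna1. Chd8, a chromatin remodeler that binds beta-catenin, was at 0.003 in the 3 KO LSC libraries and at 18.6, 8.96 and 11.1 RPKM in WT LSC. Wls was at 0.541, 0.003 and 0.003 in KO LSC, against 60.4, 19.9 and 35.8 in WT LSC. Hdac1, a histone deacetylase of co-repressor complexes, was at 2.68, 0.003 and 0.003 in KO LSC, against 15.9, 26.2 and 24.3 in WT LSC. The median log2 difference of the 57 was −1.33 and of all features −0.77. Without KO LSC 2 the number of wider genes that passed was 7, where 8.94% of all tested features were called.

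WT LSC against WT LSK gives the change with leukemia in cells labelled WT. Ctnnb1, Gsk3a, Lrp5 and Lrp6 fell, 4 of 10, where 42.3% of all tested features fell (5709, with 196 higher). All 4 passed the filter on low values only through the LSK libraries, so they had to be lower in LSCs and the count supports nothing. The same route holds for Tcf7 and Lef1, which makes 6 of the 10 listed genes. Of the 57 wider genes 30, and of all tested features 55%, needed LSK libraries to pass. These had at most 1 LSC library at 1 RPKM or more. For Ctnnb1 the log2 difference was −6.36 (SE 0.48, adjusted p = 1.7e-05, limma), and it passed under each alternative run for it. The filter fixed the direction of all 4 genes, so neither their p-values nor the alternatives are support. Gsk3a gave −2.81 (SE 0.31, adjusted p = 0.000148), Lrp5 −1.94 (SE 0.27, adjusted p = 0.000617) and Lrp6 −1.35 (SE 0.17, adjusted p = 0.0003), from limma, with every WT LSC library at 0.003. Under quantile normalization, which moved the median of all features to 0.23 against −1.94, Gsk3a was −0.14 (adjusted p = 0.652), Lrp5 turned to 0.21 and Lrp6 to 0.44 (adjusted p = 0.0344, limma). That method gives all tied features of a library 1 value, and a gene at 0.003 was set to 0.85 to 1.09 on the log2 scale in WT LSC libraries and 1.35 to 1.57 in KO LSC, against 0 in the LSK libraries. The turned signs of genes at 0.003 in every LSC library therefore say nothing of their direction.

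The listed genes that did not pass in WT leukemia were Apc (log2 difference 0.02), Axin1 (−0.20), Gsk3b (−0.73), Csnk1a1 (0.45), Tcf7 (−1.53, adjusted p = 0.106) and Lef1 (−0.63, adjusted p = 0.29), from limma. Axin1 was 1.58 without WT LSC 3 (adjusted p = 0.00989), and Tcf7 passed without WT LSK 1 (−2.82, adjusted p = 0.00167, limma). Under quantile normalization Axin1, Gsk3b, Tcf7 and Lef1 had the opposite sign, for Tcf7 and Lef1 from the value set for ties. Of the wider pathway 23 of 57 tested genes were lower and 0 higher, where 42.3% of all tested features fell. Their median was −1.71, against −1.94 for all features. The 12 with the smallest p held the co-repressors Ctbp1, Ctbp2 and Tle3, and the beta-catenin antagonists Cby1 and Ctnnbip1. The others were the casein kinases Csnk1g2 and Csnk1d, the co-activators Pygo2 and Bcl9, and Siah1a, Jup and Dvl2. All 12 passed the filter only through the LSK libraries, so their fall was fixed in advance and supports nothing.

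KO LSC against KO LSK gives the same contrast in cells labelled KO. It compares none of the libraries of the WT one, but both used the filter and the pooled spread of all 10 libraries. Ctnnb1, Apc, Gsk3a, Gsk3b, Csnk1a1, Lrp5 and Lrp6 fell, 7 of 10, where 61.7% of all tested features fell (8315, with 76 higher). Ctnnb1, Gsk3a, Lrp5 and Lrp6 again passed the filter only through LSK libraries, so neither this count nor the p-values of these 4 are support. Ctnnb1 had a log2 difference of −5.36 (SE 0.48, adjusted p = 4.6e-05), Gsk3a −3.75 (adjusted p = 2.9e-05), Gsk3b −4.46 (adjusted p = 0.0179), Csnk1a1 −5.38 (adjusted p = 0.0271) and Apc −2.84 (adjusted p = 0.0364), from limma. Lrp5 was −1.49 and Lrp6 −1.65, while Axin1 (−3.78, adjusted p = 0.054), Tcf7 (−1.45) and Lef1 (−0.75) did not pass (limma). Without KO LSC 2 the count was 5, where 58.9% of all features fell (7934, with 94 higher), and Apc and Csnk1a1 were lost (adjusted p of 0.0744 and 0.0649, limma). Apc and Csnk1a1 were also lost without either KO LSK library or without KO LSC 1, Apc without KO LSC 3, and Gsk3b without either KO LSK library. In a fit of only the compared groups Axin1 passed (−3.78, adjusted p = 1.25e-05, limma) and Csnk1a1 did not. Under quantile normalization, with a median of 0.12 against −3.06 for all features, Ctnnb1 was −1.77 (adjusted p = 0.0753, limma) and Lrp5, Lrp6, Apc and Gsk3b had the opposite sign. The 4 listed genes that passed under it were Lrp5, Lrp6, Tcf7 and Lef1, all at 0.003 in KO LSC and called higher there from the value set for ties, so no fall was kept. In the wider lists 37 of 57 tested genes were lower and 0 higher, where 61.7% of all tested features fell. Their median was −3.43, and 34 passed without KO LSC 2. The 12 with the smallest p were Ctbp1, Cby1, Ctbp2, Csnk1g2, Siah1a, Pygo2, Tle3, Ppard, Csnk1d, Bcl9, Chd8 and Ctnnbip1. All of these but Chd8 passed the filter only through LSK libraries, so their fall was fixed in advance and supports nothing.

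The effect of leukemia on a listed gene was not shown to differ between KO and WT. In the test of that difference 0 of 10 listed genes passed, where 6.08% of all tested features did (126 higher and 694 lower, 2053 with an unadjusted p under 0.05, limma). Gsk3a, Lrp5, Lrp6, Tcf7 and Lef1 were at the lowest value in every LSC library, so for them the test reads only the LSK libraries. Of the wider pathway 3 of 57 passed, Chd8, Ppp2r5a and Wls. Without KO LSC 2 the listed count was again 0, where 5.29% of all features passed (63 higher and 649 lower), and 2 wider genes passed, Chd8 among them.

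Genes that followed Ctnnb1 most closely over the 10 libraries of the CD93 experiment were sought among 8734 others with a mean of at least 5 RPKM. The 3 highest Pearson correlations of log2 values, as a description, were those of Mtpn, Afap1l1 and Tbc1d22a (0.9997, 0.9997 and 0.9996). All 3 were at 0.003 in the 6 LSC libraries, so the value rests on the gap between LSC and LSK libraries and on the order of 4 LSK libraries. Afap1l1, for example, had 53.3 and 24.8 RPKM in KO LSK and 50.4 and 117 in WT LSK.

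By position on GRCm38 (GENCODE M21), all 10 listed genes are protein-coding: Ctnnb1 lies on chromosome 9 (120929216 to 120960507), Tcf7 on chromosome 11 (52252371 to 52283014, minus strand) and Lef1 on chromosome 3 (131110471 to 131224356). Gsk3a lies on chromosome 7 (25228258 to 25237851, minus strand), Gsk3b on chromosome 16 (38089001 to 38246084) and Axin1 on chromosome 17 (26138688 to 26195811). Lrp5 lies on chromosome 19 (3584828 to 3686564, minus strand) and Lrp6 on chromosome 6 (134446476 to 134566965, minus strand). Apc and Csnk1a1 both lie on chromosome 18 (34220924 to 34322552 and 61555274 to 61590061).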

How the data were processed

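Sorted cells were sequenced after RNA extraction (RNeasy Micro) and amplification (SMART-Seq v4 Ultra Low Input), per the labels' protocols, on build GRCm38 (mm10), per the submitters' processing notes. An aligner and a counter were not given in the sources used here. Values deposited by the authors were taken as RPKM, a unit inferred from the numbers, and no counts were used. Depth was estimated from the steps of low values, at 2740000 to 7720000 reads in the WT LSC and LSK libraries, and not resolved in the others; no counting interval was computed.

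Values were analysed as log2(RPKM + 1) with limma 3.58.1 (R 4.3.3), with an intensity trend, group means as coefficients, and a model for each experiment. The filter asked for 1 RPKM or more in 2 or more libraries and left 13485 and 14005 features for testing, over which p-values were adjusted (Benjamini-Hochberg). The model was tested on simulated data. The source field of the drug samples says LSK and their titles LSC; the titles were followed. Groups come from the titles.

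The members and lists were chosen with earlier results of these data known. Named wider genes are Axin2, Myc, Ccnd1, Cd44, those that passed (up to 12 by smallest p) and the 2 highest in Veh LSC of each list. Of the marker lists, B-cell, macrophage, erythroid and endothelial markers were also read. In MCP against Veh, 0 of 1, 0 of 6 and 0 of 3 tested B-cell, macrophage and endothelial markers passed. Of 8 erythroid markers 2 fell, where 1.8% of all tested features fell. Alternatives were quantile normalization, no filter, a mean of at least 5, a pseudocount of 0.1, a replicate block, only the compared groups, and leaving out each library; a crossed block was added after the data were seen.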

Additional observations from a re-analysis of the deposited data

Results flagged for a closer look

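In 3 genes of the wider lists the LSC-against-LSK difference itself differed between KO and WT by the interaction test (limma). These were 3 of 57 tested, where 6.08% of all tested features passed, so the count is no excess. Chd8 differed by −3.43 on the log2 scale (adjusted p = 0.0146, limma). Ppp2r5a, a PP2A subunit, differed by −4.35 (adjusted p = 0.0377) and Wls by −4.15 (adjusted p = 0.0395), both from limma. Chd8 was at 0.003 RPKM in the 3 KO LSC libraries and at 8.1 and 11.9 in KO LSK, with 8.96 to 18.6 in WT LSC and 11.3 and 13.4 in WT LSK. Ppp2r5a was at 0.003 in KO LSC and 14.7 and 11.7 in KO LSK, with 7.39 to 42.5 in WT LSC and 12.5 and 9.06 in WT LSK. Under quantile normalization none of the 3 passed (adjusted p of 0.105 for Chd8, 0.133 for Ppp2r5a and 0.742 for Wls), nor with the replicate block (0.0829, 0.104 and 0.136 in the same order). Chd8 passed without each library in turn. Wls and Ppp2r5a were lost without any LSK library and without KO LSC 2 or 3, Ppp2r5a also without KO LSC 1, with adjusted p of 0.054 to 0.114. KO LSC libraries had 8.66% to 21.3% of tested features above the lowest value, and the part of this was not tested.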

How the results depend on the processing

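Listed genes that passed in MCP against Veh numbered 0 with no filter, with a mean of at least 5 (where Tcf7 was not tested) and with the replicate block, and 0 to 1 when a library was left out. For WT LSC against WT LSK the count was 1 with a mean of at least 5, and 3 under quantile normalization (Ctnnb1 lower, Lrp6 and Lef1 higher). For KO LSC against KO LSK it was 4 under quantile normalization, all higher (Lrp5, Lrp6, Tcf7 and Lef1) and none a fall kept, 3 with a mean of at least 5 and 4 to 6 when a library was left out. For KO against WT LSC it was 1 under quantile normalization (Lrp6, at 0.003 in all 6 libraries, so a product of tied values) and 1 with a mean of at least 5 (Csnk1a1), and 0 to 2 when a library was left out. Left-out libraries gave 0 to 1 for KO against WT LSK (Gsk3a without WT LSK 1, Lrp5 without KO LSK 2) and 0 to 2 for the difference of the leukemia effect (Axin1 and Gsk3b without WT LSC 3, Apc without WT LSC 2, Csnk1a1 without KO LSC 3, Lrp5 without KO LSK 2). Signs that turned under quantile normalization were, in MCP against Veh, Axin1 (0.11) and Lrp6 (0.01); in WT LSC against WT LSK, Axin1 (1.68), Gsk3b (1.33), Lrp5 (0.21), Lrp6 (0.44), Tcf7 (0.42) and Lef1 (0.73); and in KO LSC against KO LSK, Apc (1.13), Gsk3b (0.04), Lrp5 (0.83), Lrp6 (0.75), Tcf7 (0.83) and Lef1 (1.16). In WT LSC against WT LSK, Apc was −0.37 with a pseudocount of 0.1, and −0.90 to 1.10 over the left-out libraries; Axin1 was −1.09 to 1.58 and Gsk3b −1.62 to 0.82 over them. In MCP against Veh, Axin1 was −0.10 to 0.13 and Lrp5 −0.05 to 0.07 over them. For genes at 0.003 in every LSC library the turned sign comes from the value quantile normalization gives to ties; for the others the cause was not tested.

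The replicate numbers were read as names: same-numbered libraries correlated in their deviations by −0.008 to 0.014 in the drug experiment and −0.023 to 0.003 in LSCs. In LSKs the value was −0.282, and 0.282 with the numbers crossed. With 2 libraries in each LSK group these values are mirror images, so they cannot show if the numbers pair libraries. With the replicate block, Tcf7 in MCP against Veh had an adjusted p of 0.102, and in WT LSC against WT LSK the values were Apc −0.04, Axin1 0.69, Gsk3b 0.06 and Csnk1a1 −0.44; all calls were 39 in place of 325 in MCP against Veh, 5 in place of 247 in KO against WT LSK (also 5 with crossed numbers) and 0 in place of 820 for the difference of the leukemia effect. All calls under quantile normalization were 1351 higher and 1568 lower for WT LSC against WT LSK, 2013 and 1755 for KO LSC against KO LSK, 562 and 745 for KO against WT LSC, 11 and 4 for KO against WT LSK, and 96 and 54 for the difference. KO against WT LSK had 0 calls with only the compared groups and 1 with a mean of at least 5. Over the left-out libraries all calls ranged from 25 to 406 in MCP against Veh (25 without Veh 3), 964 to 2065 in KO against WT LSC, 357 to 943 in KO against WT LSK and 491 to 1558 for the difference. With a mean of at least 5 they were 3021 in place of 5905 for WT LSC against WT LSK and 5396 in place of 8391 for KO LSC against KO LSK, and with no filter 418 for KO against WT LSK. Wider pathway genes that passed numbered 13 under quantile normalization in each of the LSC-against-LSK comparisons, in place of 23 (WT) and 37 (KO), and 13 to 14 in WT with the replicate block, a mean of at least 5, only the compared groups or without WT LSK 2. In MCP against Veh they were 0 to 3 over the left-out libraries, 1 with no filter and 0 with the replicate block, and in KO against WT LSC 5 under quantile normalization or with only the compared groups, in place of 8.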

Other observations

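Tcf7l2, a factor of the Tcf7 family, was chosen after its values were seen. It was the member of the family with the most signal in the LSCs of the CD93 experiment, at 218, 1.14 and 0.003 RPKM in KO LSC and 93.0, 123 and 369 in WT LSC, against 25.2 and 28.9 in KO LSK and 28.5 and 22.2 in WT LSK. In the drug experiment it had 3.19, 2.63 and 1.87 RPKM in MCP and 5.75, 6.56 and 7.58 in Veh. It passed in no comparison (adjusted p = 0.0602 for MCP against Veh and 0.361 for WT LSC against WT LSK, limma).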
